A study of Homo sapiens with 10 samples.

Results

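Metallothionein transcripts and the transcripts of the zinc sensor and zinc transporters that surround them were followed in PANC-1, a cell line established from a carcinoma of the human pancreas. The members are 10 genes taken by name from a table of 20263 genes. They are 6 metallothioneins (MT1E, MT1F, MT1G, MT1M, MT1X and MT2A), the zinc-sensing transcription factor MTF1 and the zinc transporters SLC30A1, SLC39A10 and SLC39A14. Cells received 20 µM lycorine (LY), an alkaloid of Amaryllis-family plants that is known to block translation, or only the vehicle DMSO, and RNA was taken after 24 h. Each group has 5 libraries of mRNA, called LY-1 to LY-5 and NC-1 to NC-5, and no source says whether they came from separate cultures. Values are TPM, a transcript abundance that the authors scaled to a constant library total. TPM correct for transcript length and library total, so that levels can be compared between genes within a library. Between libraries they also depend on what the other genes take of the total. The number of reads behind them is unknown. In such bulk libraries, fewer cells that express a gene and less of its RNA per cell cannot be told apart.

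Metallothioneins are small cysteine-rich proteins that bind zinc, copper and cadmium and hold most of the exchangeable zinc of a cell. Free zinc binds MTF1, which moves to metal response elements in the promoters of metallothionein genes and of SLC30A1, the exporter that pumps zinc out of the cytosol through the plasma membrane. The SLC39 proteins carry zinc the other way, into the cytosol. Zinc excess is known to raise metallothionein and SLC30A1 transcripts together and to lower SLC39A10, and glucocorticoids and inflammatory signals raise metallothioneins as well.

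Metallothionein and SLC30A1 transcripts moved in opposite directions. The 4 metallothionein members with measurable levels, MT1E, MT1M, MT1X and MT2A, fell to between 33.1% and 48.2% of their DMSO means, whereas SLC30A1 rose from 19.3 to 58.8 TPM, MTF1 from 9.21 to 20.6 TPM and SLC39A10 from 40.5 to 80.7 TPM. SLC39A14 measured 99.4 TPM in LY against 83.1 in DMSO and did not pass the test. MT1G was listed at 0 in all 10 libraries and MT1F in 9 of them. A linear model across genes (limma, on log2(TPM + 1), with Benjamini-Hochberg adjustment over all 11663 genes that passed a filter on low values) called 4 members lower and 3 higher of the 8 that passed the filter. Over all tested genes the same fit called 64.6% in either direction, 24.9% lower and 39.8% higher. The groups were also without overlap in those 4 and those 3 members, against 16.7% of tested genes without overlap in the lower and 32.7% in the higher direction. The median tested gene had a log2 fold change of 0.17 as deposited, between -0.058 and 0.05 with median-ratio, upper-quartile or quantile scaling, so changes relative to the median gene are given too. Of all called genes 38.5% were lower as deposited, and 48.6%, 55.1% and 47.7% with those 3 scalings; the counts of members were the same under each.

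The promoters of MT2A, MT1X and SLC30A1 are shown because these genes share metal response elements as a known feature and moved in opposite directions. Sequences are from RefSeq on GRCh38.p14, written 5′ to 3′ on the strand of the gene and ending at the base before its annotated start. Capitals mark matches to the core of the metal response element, searched on both strands as TGCGCNC and TGCACNC; on the opposite strand the capitals read as the reverse complement. The windows are chr16:56608334-56608583 (plus strand) for MT2A, chr16:56682220-56682469 (plus strand) for MT1X and chr1:211579162-211579411 (minus strand) for SLC30A1.
MT2A: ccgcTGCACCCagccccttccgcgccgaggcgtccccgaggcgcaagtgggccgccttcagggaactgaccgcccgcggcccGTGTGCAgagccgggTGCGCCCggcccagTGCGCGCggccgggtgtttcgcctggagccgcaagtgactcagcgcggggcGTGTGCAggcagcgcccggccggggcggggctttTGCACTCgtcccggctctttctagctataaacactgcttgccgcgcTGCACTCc
MT1X: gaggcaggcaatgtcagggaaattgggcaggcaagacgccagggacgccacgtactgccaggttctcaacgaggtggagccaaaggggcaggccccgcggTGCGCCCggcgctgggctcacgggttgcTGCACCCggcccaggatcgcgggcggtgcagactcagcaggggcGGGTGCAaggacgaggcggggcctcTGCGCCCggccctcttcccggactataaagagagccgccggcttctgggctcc
SLC30A1: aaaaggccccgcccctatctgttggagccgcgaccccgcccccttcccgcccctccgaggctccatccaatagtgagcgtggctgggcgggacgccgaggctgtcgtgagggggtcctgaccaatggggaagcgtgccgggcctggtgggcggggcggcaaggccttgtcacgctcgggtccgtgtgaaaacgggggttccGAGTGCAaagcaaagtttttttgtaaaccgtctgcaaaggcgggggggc
These 250 bases held 7 matches in MT2A, 4 in MT1X and 1 in SLC30A1, and no matches in MTF1 or in either SLC39A10 window. Matches were not limited to expressed family members: MT1H, listed at 0 in 9 libraries, held 8, and MT1B and MT4, listed at 0 in all, held 3 each. Of 35116 promoters of the same length in the RefSeq table, 24.8% held at least 1 match, 0.37% at least 4 and 0.031% at least 7. Counted back from the start, the MT1X matches began at -150, -122, -78 and -53 and those of MT2A from -246 to -8. The single match in SLC30A1 began at -49. The MT2A window lies inside the gene as GENCODE release 29 outlines it, which reaches farther 5′ than the RefSeq start, and the ends of the MT1X and MTF1 windows overlap the GENCODE genes in the same way. The SLC30A1 window lies wholly upstream of the GENCODE start, and both SLC39A10 windows lie far inside the gene span given here, so their match counts do not describe the sequence next to the GENCODE start. A match is a description of letters and was not tested as a binding site. Windows of 5 of the 10 members were matched by symbol. No window was found for MT1E, MT1F, MT1G, MT1M or SLC39A14, nor for MT1A, so these promoters were not searched.

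MT2A, the most abundant metallothionein of human cells, lies on chromosome 16 from 56608199 to 56609497 (ENSG00000125148; hg38, GENCODE release 29). Its levels in LY-1 to LY-5 were 563.6, 556.4, 588.8, 648.1 and 738.7 TPM, and in NC-1 to NC-5 they were 1404, 848.5, 1515, 1359 and 1299 TPM. Every LY library was below every control, and NC-2 was the lowest control. The means were 619 ± 76 TPM in LY and 1285 ± 257 in DMSO (SD, n = 5), a log2 fold change of -1.03 ± 0.16 (SE; limma adjusted p = 0.000123), or -1.20 relative to the median gene.

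MT1E, which lies 17.3 kb from MT2A (ENSG00000169715; chromosome 16, 56625475 to 56627112), had a decrease close to that of MT1M. On the log2(TPM + 1) scale MT1E fell the most of the members, whereas with a pseudocount of 0.1 MT1M did (-1.54 against -1.51), and MT1M was also at the lower share of its DMSO mean (33.1% against 34.7%). It measured 267.6, 232.3, 324.6, 358.4 and 330.3 TPM in LY-1 to LY-5 and 938.3, 528.2, 1006, 951.8 and 940 TPM in NC-1 to NC-5. The groups did not overlap, and NC-2 stood far below the other 4 controls, which spanned 938 to 1006 TPM. The log2 fold change was -1.51 ± 0.19 (limma adjusted p = 2.19e-05), or -1.67 relative to the median gene, and 4.34% of tested genes had a lower one.

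MT1X (ENSG00000187193; chromosome 16, 56682424 to 56684196) measured 120.6, 132.1, 146, 152.4 and 159.3 TPM in LY-1 to LY-5 and 352.6, 261.5, 384.3, 360.5 and 290.4 TPM in NC-1 to NC-5. Again all 5 LY values were below all controls, with a log2 fold change of -1.20 ± 0.13 (limma adjusted p = 5.83e-06). MT1X overlaps the non-coding gene AC026461.1 on the same strand and shares transcript sequence with it, so its reads can be split between them.

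MT1M (ENSG00000205364; chromosome 16, 56632233 to 56633986) was expressed at a far lower level. It measured 5.92, 5.89, 6.92, 9.95 and 6.07 TPM in LY-1 to LY-5 and 23.3, 10.2, 27.7, 21.5 and 22.3 TPM in NC-1 to NC-5. The highest LY library, LY-4, and the lowest control, NC-2, nearly met, although the groups did not overlap. For MT1M the log2 fold change was -1.43 ± 0.23 (limma adjusted p = 0.000195).

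**Figure D1:**
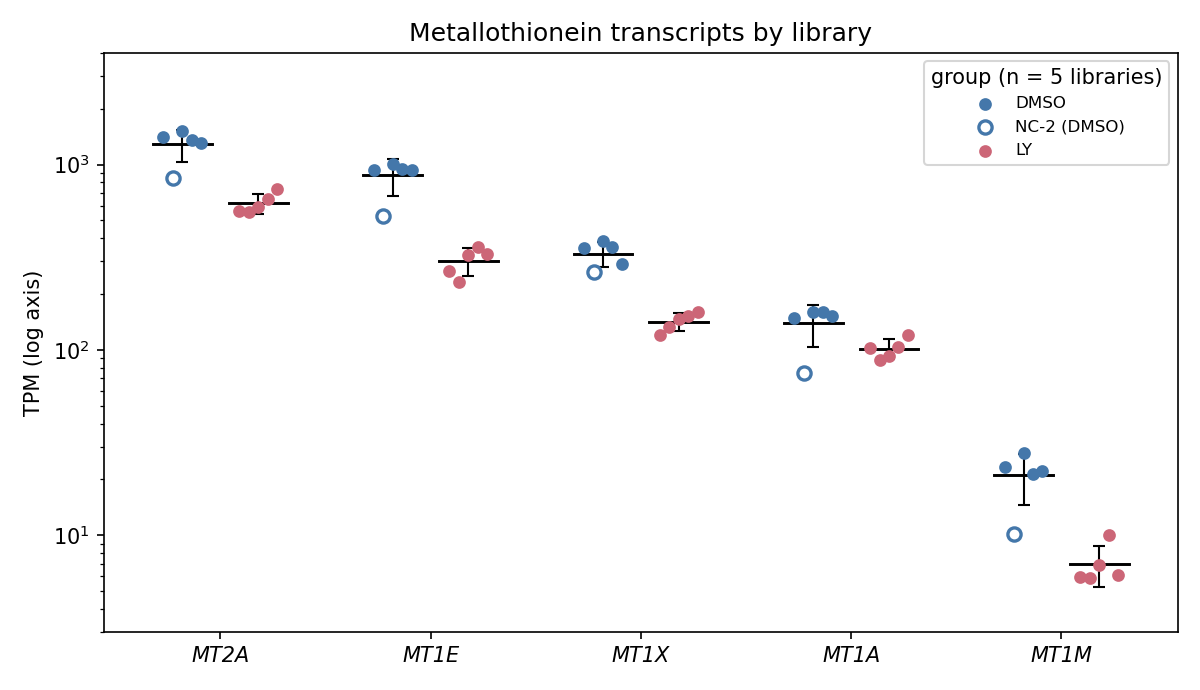
TPM of the 5 expressed metallothionein genes in every library (log axis; points are libraries, blue DMSO, red LY, the open point NC-2; horizontal bars are means and error bars SD, n = 5). MT2A, MT1E, MT1X and MT1M do not overlap between groups, and NC-2 is the lowest control for all 5 genes.

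MT1F (chromosome 16, 56657694 to 56660698) was listed at 0 in every library but NC-5, which held 0.167 TPM. MT1G (chromosome 16, 56666731 to 56668065, on the opposite strand to the others) was listed at 0 in all 10. Neither passed the filter of at least 1 TPM in at least 5 libraries, and no fold is given. The other metallothionein genes MT1B, MT1HL1, MT3 and MT4 were listed at 0 throughout as well, and MT1H at 0 in 9 libraries. A value of 0 here means no assigned signal, since paralogs share sequence: 16.5% of the 50-base stretches of MT1G transcripts occur in transcripts of other genes, against 3.02% for MT2A, 7.10% for MT1E, 9.87% for MT1M, 18.3% for MT1X and 5.76% for MT1A. Only MT1X, among these 6, shared any stretch of 100 bases with another gene (11.3%). Read length and the handling of shared reads were not given in the sources used here.

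MT1A is the remaining expressed gene of the family and is no member of the 10, but it sits between MT1M and MT1X on the chromosome (56638666 to 56640087). It measured 101.9, 88.1, 93.1, 103.5 and 120.8 TPM in LY-1 to LY-5 and 148.1, 75.1, 159.9, 160.1 and 152.6 TPM in NC-1 to NC-5. NC-2 was below all 5 LY libraries, whereas the other 4 controls were above them. The log2 fold change was -0.41 ± 0.20 (limma adjusted p = 0.0861), and without NC-2 it was -0.62 with an adjusted p of 0.000127. MT1A also passed, downward, with median-ratio (-0.55), upper-quartile (-0.65) and quantile (-0.68) scaling and after removal of the mitochondrially encoded genes (-0.56). Rescaled outside those genes, NC-2 (120.2 TPM) still lay below LY-5 (129.8 TPM) and close to LY-1 (119.8 TPM), so the groups overlapped there too.

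**Figure D2:**
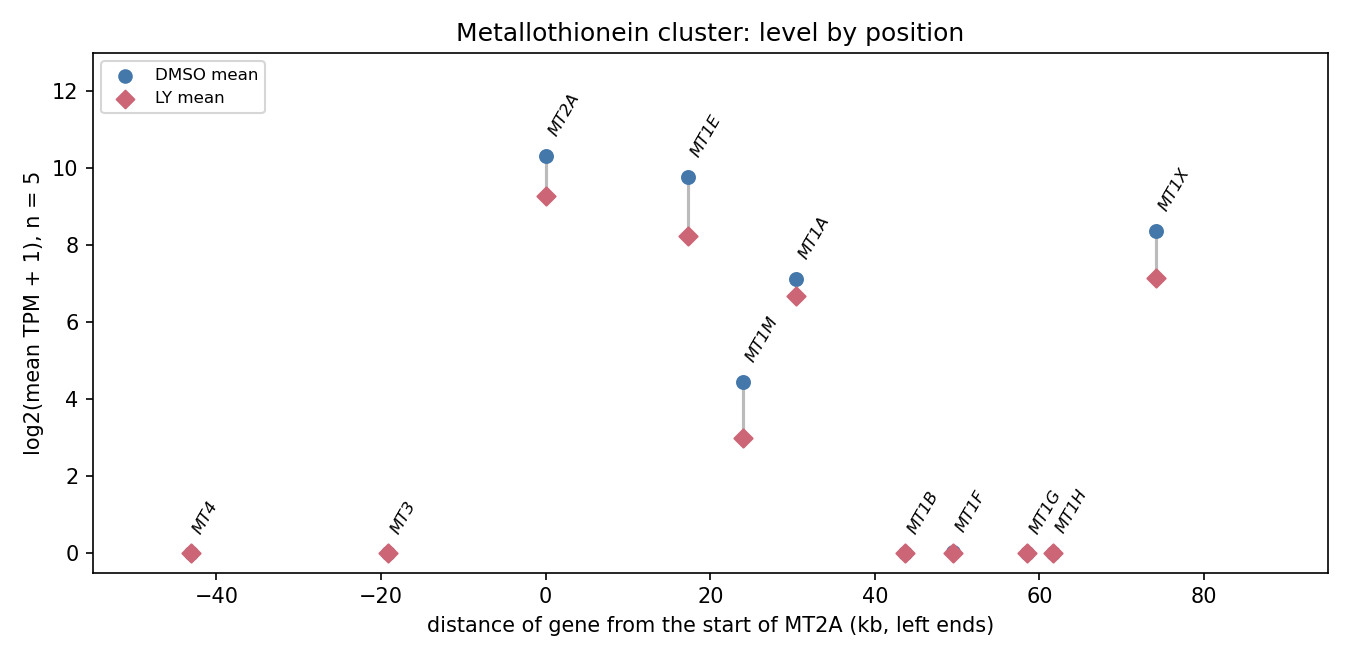
Mean level of each metallothionein gene of the chromosome 16 cluster, as log2(mean TPM + 1) of 5 libraries per group, against the distance of its left end from that of MT2A in kb (blue circles DMSO, red diamonds LY). MT2A, MT1E, MT1M and MT1A lie side by side, MT1B, MT1F, MT1G and MT1H at or near 0 separate them from MT1X, and among the expressed genes the gap between groups is smallest at MT1A.

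Ratios within a library do not depend on scaling across libraries, and 6 of them were compared by two-sided exact permutation tests (smallest possible p 0.0079), adjusted over the 6. The ratios were chosen after the values were seen, and the adjustment does not cover that choice. MT1E per MT2A was 0.475, 0.418, 0.551, 0.553 and 0.447 in LY-1 to LY-5 and between 0.623 and 0.724 in the controls (log2 difference -0.47, adjusted exact p = 0.0159). MT1A per MT2A went the other way, from 0.107 ± 0.012 in DMSO to 0.164 ± 0.0096 in LY (log2 difference 0.62, adjusted exact p = 0.0159). Thus MT1E decreased more than MT2A, and MT1A less. MT1M per MT2A was 0.0113 ± 0.0026 in LY and 0.016 ± 0.0024 in DMSO (adjusted exact p = 0.0190), a call lost without any single one of LY-1, LY-2, LY-3, LY-5, NC-1, NC-3 or NC-4 (adjusted exact p = 0.0571 each). MT1X per MT2A was 0.23 ± 0.015 in LY against 0.26 ± 0.031 in DMSO and did not pass (log2 difference -0.17, adjusted exact p = 0.0635), although it did without NC-5 (-0.23, adjusted exact p = 0.0190).

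Summed over the family, metallothionein transcripts took 1060, 1015, 1159, 1272 and 1355 TPM in LY-1 to LY-5 and 2867, 1724, 3093, 2852 and 2705 TPM in NC-1 to NC-5. The LY mean was 44.3% of the DMSO mean. The make-up of the sum shifted with it: MT1E took 32.8 ± 1.5% of the sum in DMSO and 25.7 ± 2.3% in LY, MT1A 5.19 ± 0.52% and 8.68 ± 0.64%, and MT2A 48.6 ± 0.7% and 52.9 ± 1.9%. MT1X held 12.7% in DMSO and 12.1% in LY. These sums and shares are descriptions of the members and carry no test.

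**Figure D3:**
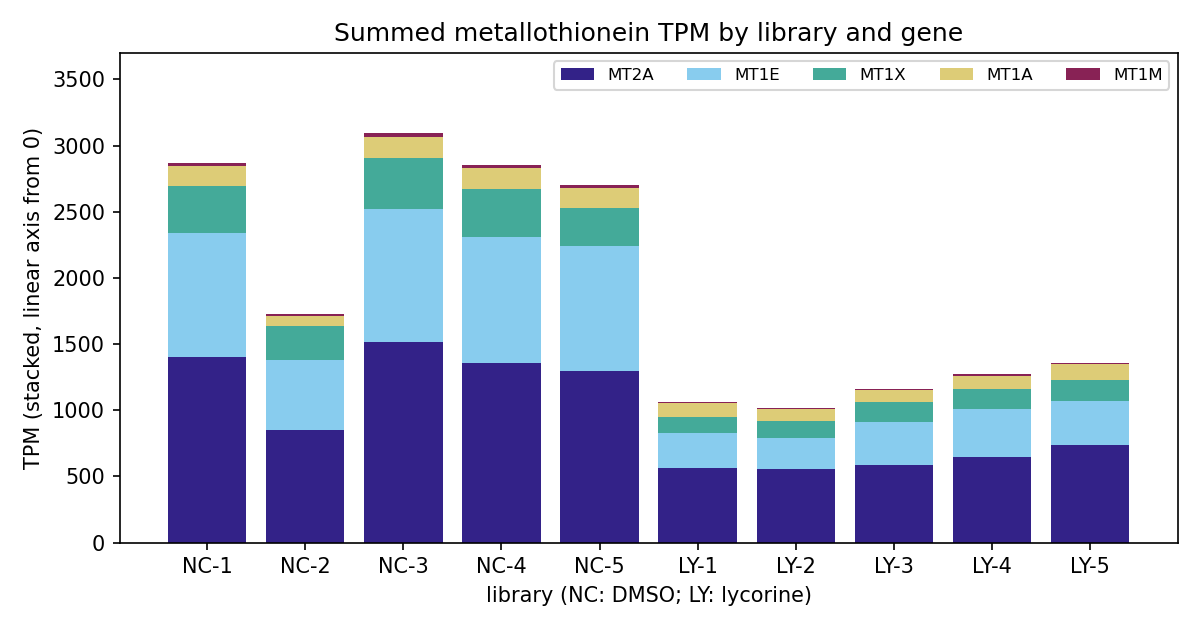
Summed metallothionein TPM of each library (stacked bars on a linear axis from 0; colours are genes). The 5 LY libraries lie between 1015 and 1355 TPM and the controls between 1724 (NC-2) and 3093 TPM.

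NC-2 is the control that stands apart in these values. Mitochondrially encoded genes took 37.5% of its TPM, against 12.2% to 14.1% in the other controls and 6.43% to 14.9% in LY, and a larger mitochondrial share lowers the TPM of every other gene. Rescaled to the TPM outside the mitochondrially encoded genes, summed metallothioneins measured 2757 in NC-2, 3082 to 3575 in the other controls and 1145 to 1456 in LY. NC-2 therefore stayed the lowest control on that scale and above all LY libraries. Without NC-2 the log2 fold changes were -1.68 for MT1E, -1.65 for MT1M, -1.28 for MT1X and -1.18 for MT2A, each larger in size than with it.

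MTF1 (ENSG00000188786; chromosome 1, 37809567 to 37859620), the zinc sensor that activates metallothionein genes, was higher in LY. It measured 22.5, 22, 21.3, 18.8 and 18.2 TPM in LY-1 to LY-5 and 10.2, 9.08, 9.47, 8.82 and 8.50 TPM in NC-1 to NC-5. The groups were far apart, and NC-2 lay within the other controls as deposited; rescaled outside the mitochondrially encoded genes it was the highest control at 14.5 TPM, against 19.5 to 26.5 in LY. MTF1 thus had a log2 fold change of 1.08 ± 0.10 (limma adjusted p = 1.49e-06), or 0.91 relative to the median gene. The activity of MTF1 is known to depend on zinc binding and nuclear entry, which transcript levels do not measure.

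SLC30A1 (ENSG00000170385; chromosome 1, 211571568 to 211578742), the zinc exporter of the plasma membrane and a known MTF1 target, had the largest increase among the members. Its levels were 57.1, 47.3, 66.3, 66.7 and 56.5 TPM in LY-1 to LY-5 and 17.9, 17.7, 18.2, 22.7 and 19.8 TPM in NC-1 to NC-5. The lowest LY library was above the highest control by more than the whole range of the controls. SLC30A1 changed by 1.56 ± 0.12 on the log2 scale (limma adjusted p = 3.58e-07), or 1.39 relative to the median gene, and 96.5% of tested genes had a lower one.

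SLC39A10 (ENSG00000196950; chromosome 2, 195575977 to 195737702), a zinc importer of the plasma membrane, measured 101.4, 51.8, 93.4, 84.6 and 72.3 TPM in LY-1 to LY-5 and 37.6, 45, 42.2, 44.4 and 33.3 TPM in NC-1 to NC-5. LY values were spread widely, with LY-2 closest to the controls, and none overlapped them. Rescaled outside the mitochondrially encoded genes, however, NC-2 (72 TPM) exceeded LY-2 (58.5 TPM), and the other controls lay between 37.9 and 51.5 TPM. As deposited the log2 fold change was 0.95 ± 0.17 (limma adjusted p = 0.000372), or 0.78 relative to the median gene. SLC39A10 rose less than SLC30A1: its ratio to SLC30A1 was 1.37 ± 0.25 in LY and 2.12 ± 0.33 in DMSO (log2 difference -0.64, adjusted exact permutation p = 0.0190).

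SLC39A14 (ENSG00000104635; chromosome 8, 22367249 to 22434129), an importer of zinc, iron and manganese that inflammatory signals induce in liver, split the LY libraries. LY-1 and LY-2 held 67.2 and 65.8 TPM, below 4 of the 5 controls, and LY-3, LY-4 and LY-5 held 116, 121 and 127 TPM, above all of them. NC-1 to NC-5 measured 88.5, 62.2, 80.1, 85.7 and 99.1 TPM. Rescaled outside the mitochondrially encoded genes, LY-1 and LY-2 (79.04 and 74.28 TPM) were below every control (92.65 to 112.9 TPM). On that scale LY-3, LY-4 and LY-5 held 124, 130.8 and 136.4 TPM, above every control. The log2 fold change was 0.21 ± 0.21 (limma adjusted p = 0.387), and it ran from -0.06 to 0.34 over 23 alternative settings without passing in any. LY-1 and LY-2 also had the highest mitochondrial shares of the LY group, 14.9% and 11.4% against 6.43% to 7.55%; the part of this in the split was not tested. The ratio of SLC39A14 to SLC30A1 was 4.33 ± 0.68 in DMSO and 1.68 ± 0.41 in LY (log2 difference -1.39, adjusted exact permutation p = 0.0159). SLC39A14 itself did not pass, so this ratio restates the rise of SLC30A1 and is no decrease of SLC39A14.

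**Figure D4:**
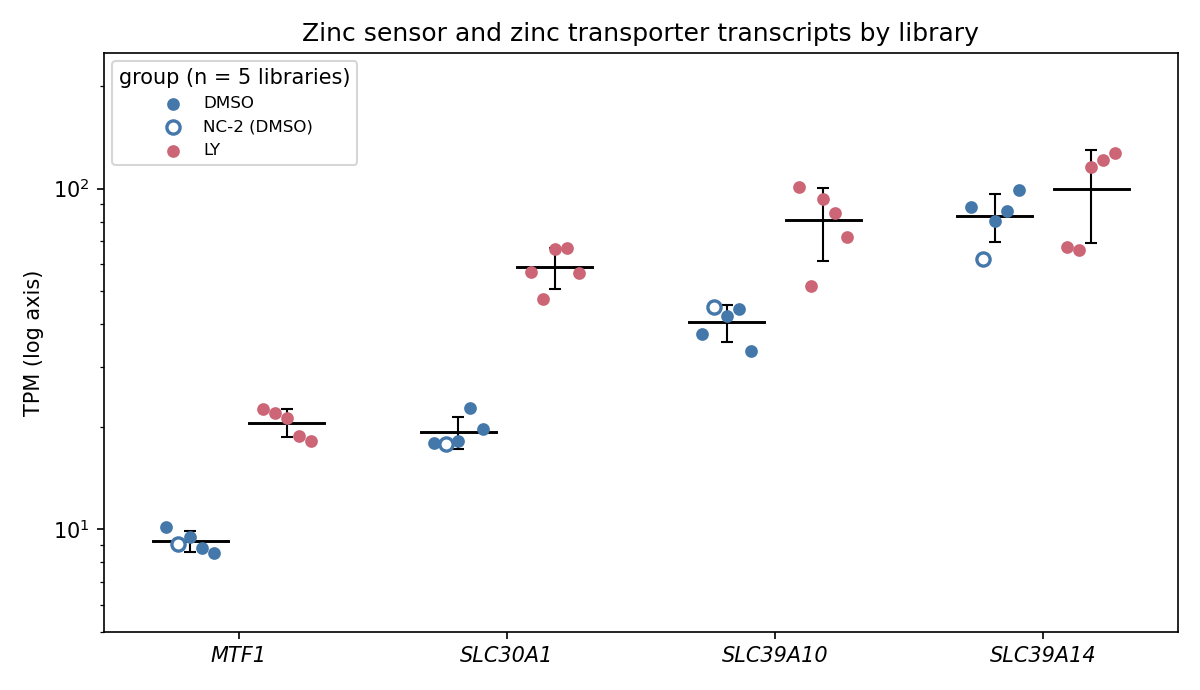
TPM of MTF1, SLC30A1, SLC39A10 and SLC39A14 in every library (log axis; points are libraries, blue DMSO, red LY, the open point NC-2; horizontal bars are means and error bars SD, n = 5). The groups are separate for MTF1, SLC30A1 and SLC39A10, and for SLC39A14 LY-1 and LY-2 lie at 67.2 and 65.8 TPM, within the range of the controls.

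The order of levels differed between groups. In DMSO it ran MT2A (1285 TPM), MT1E (873), MT1X (330), MT1A (139), SLC39A14 (83.1), SLC39A10 (40.5), MT1M (21), SLC30A1 (19.3) and MTF1 (9.21), with MT1F and MT1G at or near 0. Neighbours whose control values overlapped across libraries were MT2A with MT1E, MT1A with SLC39A14 and MT1M with SLC30A1. Within every control, however, MT2A exceeded MT1E and MT1A exceeded SLC39A14. In LY it ran MT2A (619), MT1E (303), MT1X (142), MT1A (101.5), SLC39A14 (99.4), SLC39A10 (80.7), SLC30A1 (58.8), MTF1 (20.6) and MT1M (6.95). Across the LY libraries, MT1X overlapped MT1A, MT1A overlapped SLC39A14, SLC39A14 overlapped SLC39A10 and SLC39A10 overlapped SLC30A1. Within every LY library, however, MT1X exceeded MT1A and SLC39A10 exceeded SLC30A1. MT1M was thus level with SLC30A1 in DMSO and below MTF1 in every LY library.

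The SLC30 family, known mainly for export of zinc from the cytosol, has 10 genes. With SLC30A1 counted, 7 were tested, of which 4 were higher in LY, 1 was lower and 2 were not called. Counts of this and the later lists stand beside 39.8% of all tested genes higher and 24.9% lower. The median of the SLC30 genes was 0.28 on the log2 scale, against 0.17 for all tested genes. SLC30A6, which loads zinc into the early secretory pathway, rose from 9.94 to 19.9 TPM (0.91 ± 0.22), and SLC30A9, a mitochondrial zinc carrier, from 19.8 to 27.7 TPM (0.46 ± 0.09). SLC30A9 did not pass with upper-quartile scaling (adjusted p = 0.06), and with that scaling 2 genes of the list were higher. SLC30A7 (0.28 ± 0.10, limma adjusted p = 0.0334) did not pass with median-ratio or upper-quartile scaling (limma adjusted p = 0.254 and 0.65). Its call was also lost without any one of LY-1, LY-3, LY-4, NC-1, NC-3 or NC-4 (limma adjusted p from 0.0593 to 0.0818). SLC30A3, known from synaptic vesicles, fell from 3.80 to 2.32 TPM (-0.54 ± 0.16). SLC30A2, SLC30A8, the zinc carrier of insulin granules, and SLC30A10 were listed at 0 in all libraries.

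The SLC39 importers number 14. Of the 11 tested, with SLC39A10 and SLC39A14 among them, 3 were higher, 1 was lower and 7 were not called, and the median of 0.21 was near that of all tested genes. Upper-quartile scaling gave 2 higher and 2 lower with a median of -0.005. SLC39A13, which releases zinc from intracellular vesicles, measured 54.2 ± 7.3 TPM in LY and 28.2 ± 5.6 in DMSO (0.93 ± 0.16, limma adjusted p = 0.000242). SLC39A6, the closest relative of SLC39A10, went from 42.1 to 59.3 TPM (0.48 ± 0.12), a call lost with median-ratio, upper-quartile and quantile scaling (adjusted p = 0.0916, 0.212 and 0.247). SLC39A3 fell from 46.4 to 28 TPM (-0.67 ± 0.21), but not by the exact permutation test (adjusted p = 0.0512). SLC39A2 and SLC39A12 were listed at 0 throughout.

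**Figure D5:**
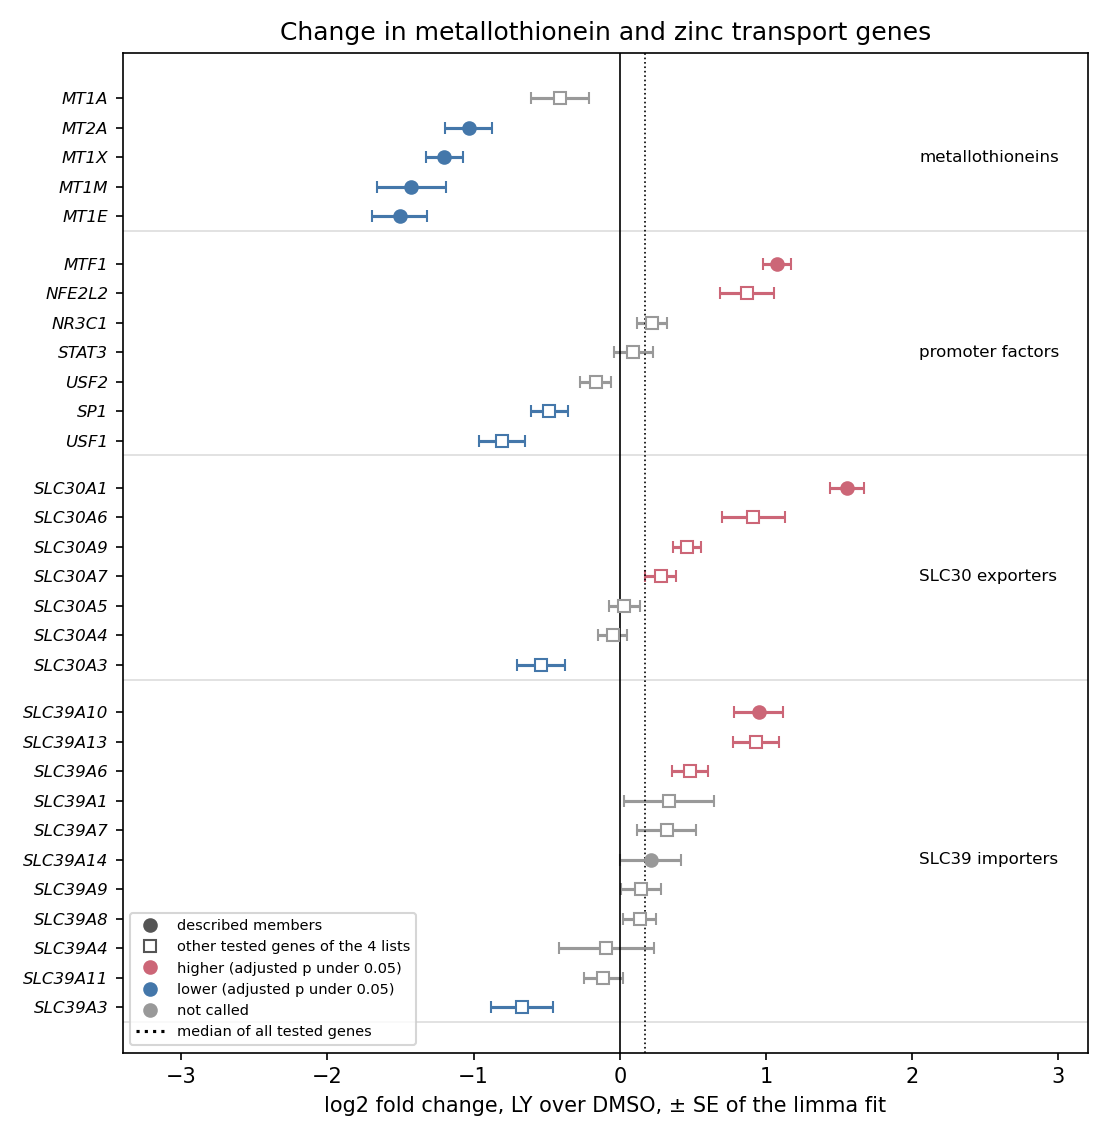
Log2 fold change (LY over DMSO) ± SE of the limma fit for the tested metallothioneins, the factors known to act on their promoters, and the SLC30 and SLC39 transporters (filled circles are members, open squares other genes of these lists; red higher, blue lower, grey not called; dotted line, median of all tested genes at 0.17). All 5 tested metallothioneins lie left of 0, and SLC30A1 lies farthest right.

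Among 7 factors known to act on metallothionein promoters, MTF1 included, all tested, 2 were higher, 2 lower and 3 not called, with a median of 0.093 that turned to -0.053, -0.152 and -0.188 with median-ratio, upper-quartile and quantile scaling. With each of these scalings, with mitochondrially encoded genes removed and without NC-2, 3 were lower, the third being USF2 (log2 fold change -0.16 as deposited, limma adjusted p = 0.196). NFE2L2, the regulator of the oxidative stress response, rose from 38 to 70.7 TPM (0.87 ± 0.18). USF1 fell from 66.3 to 36.9 TPM (-0.80 ± 0.16) and SP1 from 38.2 to 27.4 TPM (-0.48 ± 0.13). NR3C1, the glucocorticoid receptor, measured 18.3 TPM in LY and 15.6 in DMSO and did not pass (limma adjusted p = 0.0817; 0.0265 without LY-2).

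Glucocorticoids induce other genes besides metallothioneins. Of 7 such genes tested, 4 were higher, 1 was lower and 2 were not called (2 lower with median-ratio or upper-quartile scaling or without NC-2). The shares over all tested genes were 39.8% higher and 24.9% lower. DUSP1, a phosphatase of MAP kinases, rose from 51.1 to 207 TPM (2.21 ± 0.33) and ERRFI1, an inhibitor of the EGF receptor, from 404 to 980 TPM (1.29 ± 0.14), whereas the transcription factor KLF9 fell from 6.01 to 0.949 TPM (-1.82 ± 0.16). KLF9 passed the filter through its controls (3.96 TPM or more, against 0.745 to 1.19 in LY), so its fall is a description only. With the filter set to at least 5 TPM, 6 of these genes were tested, with 4 higher and 0 lower. ZBTB16 was listed at 0. Genes outside the family that metals are known to induce went both ways, with 3 of 8 tested higher, 3 lower and 2 not passing as deposited. GCLM (0.59 ± 0.16), 1 of the 3 higher, did not pass with median-ratio, upper-quartile or quantile scaling (limma adjusted p = 0.0555, 0.126 and 0.166). Upper-quartile scaling and removal of the mitochondrially encoded genes each gave 2 higher and 4 lower. HMOX1 was then among the lower genes (limma adjusted p = 0.0155 and 0.0316). The inducible chaperones HSPA1A (-2.88 ± 0.12) and HSPA1B (-2.89 ± 0.13), whose near-identical sequences can share reads, fell, and the thioredoxin reductase TXNRD1 (1.67 ± 0.14) and the sulfiredoxin SRXN1 (1.12 ± 0.14) rose.

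Copper handling genes, which share metallothioneins as a copper store, also went both ways: of 11 tested, 4 were higher, 3 lower and 4 not called. These counts are near the shares over all tested genes, 39.8% higher and 24.9% lower. With median-ratio scaling, or without NC-2, 5 were lower, and upper-quartile scaling gave 5 lower and 2 higher. The copper importer SLC31A1 fell from 22.5 to 12 TPM (-0.86 ± 0.10), and ATOX1, which hands copper to the export pumps, from 137.6 to 92 TPM (-0.54 ± 0.19). The ATOX1 call was lost by the exact permutation test (adjusted p = 0.0618) and without any one of LY-1, LY-3, NC-1, NC-3, NC-4 or NC-5 (adjusted p from 0.0523 to 0.0643). The copper pump ATP7B rose from 5.93 to 15.1 TPM (1.22 ± 0.12) and SCO1, which delivers copper to cytochrome oxidase, from 18 to 29.5 TPM (0.69 ± 0.11). Among other zinc handling genes, 3 of 5 tested were higher and 1 lower: the zinc chaperone paralogs ZNG1C (0.79 ± 0.12) and ZNG1A (0.59 ± 0.10) rose, and the metal transporter SLC11A2 fell (-0.42 ± 0.13). The ZNG1 paralogs are nearly identical in sequence, so their separate values are uncertain.

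Genes that flank the metallothionein cluster on chromosome 16 were compared with it. Of 9 tested neighbours, 6 were lower, 1 was higher and 2 were not called, with the same counts under median-ratio, upper-quartile and quantile scaling. Their median was -0.53 on the log2 scale, against 0.17 for all tested genes. With the filter set to at least 5 TPM, 7 were tested, of which 4 were lower and 1 was higher. The median was then -0.484, against 0.219 for all genes tested with that filter. As deposited, 24.9% of all tested genes were lower and 39.8% higher. NLRC5, an activator of MHC class I genes, fell from 6.03 to 0.781 TPM (-1.93 ± 0.21). It passed the filter through its controls (2.94 TPM or more, against 0.588 to 1.21 in LY), so its fall is a description only. BBS2, a cilium protein gene on the MT4 side of the cluster, fell from 44 to 23.1 TPM (-0.90 ± 0.13). OGFOD1, an oxygenase gene that overlaps BBS2 on the opposite strand, rose from 42.5 to 76.7 TPM (0.84 ± 0.18). NUP93, the nearest tested neighbour on the MT1X side, measured 168 TPM in LY and 153.5 in DMSO and did not pass (limma adjusted p = 0.486). SLC12A3 and CETP were listed at 0.

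Outside the family, the 4 genes whose profile over the 10 libraries lay closest to the mean profile of MT1E, MT1M, MT1X and MT2A were HMG20B, NUCB1, RNF207 and PLPPR3. Likeness was the root mean square difference of log2(TPM + 1), each gene taken relative to its own mean. It was 0.0735 for HMG20B, 0.0757 for NUCB1, 0.0775 for RNF207 and 0.092 for PLPPR3, against 0.131 for MT1E, 0.139 for MT1X, 0.153 for MT2A, 0.172 for MT1M and 0.463 for MT1A. Because 11663 profiles were searched, such closeness is a description only.

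Defining markers were checked against the label of a pancreatic cancer line. The epithelial keratins KRT8 (1344 TPM in LY, 1419 in DMSO), KRT18 (1010 and 714) and KRT19 (21 and 148) were expressed, whereas KRT7 and CDH1 were below 1 TPM in every library and EPCAM measured 1.46 and 0.923 TPM. All 4 endocrine markers and 4 of 5 acinar markers were listed at 0, with the summed acinar level at most 0.781 TPM. Of the markers of other cells, DCN, LUM, PECAM1 and CD3E were listed at 0, PTPRC and VWF were near 0, COL1A1 went from 2.85 to 0.455 TPM, CDH5 from 0.368 to 3.01 TPM and CD68, also a lysosomal protein of many cells, from 39.8 to 179 TPM. Their part in the results was not tested.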

How the data were processed

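PANC-1 libraries were grouped as LY (5) and DMSO (5) from the labels. The NC-1 to NC-5 columns match no sample title and were used as the DMSO libraries, without tying a column to a numbered sample. The series design gives 4 per group, the labels 5. The deposited file holds TPM that the authors computed from the reads; the aligner, counting tool and annotation were not given in the sources used here. Per the submitters' processing notes the builds GRCm38, mm10 and hg38 are listed, with no roles. TPM keeps no depth, so no counting interval is given. No pair of columns was identical.

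Symbols came from an Ensembl name table (20148 genes) and GENCODE release 29 (76), with 39 unnamed. Positions refer to GENCODE release 29. Genes with TPM of at least 1 in at least 5 libraries were kept (11663). log2(TPM + 1) was fitted with limma 3.58.1 (R 4.3.3; mean-variance trend, group as only term), with calls made at an adjusted p below 0.05. The fit was tested on simulated data. Fold changes on this scale understate changes of low genes, and each p-value reflects only the scatter among these samples, which may be technical.

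The members, the gene lists and the tests were chosen with earlier results of these data known. Named genes were all members, per list the 2 called genes with the largest change in each direction, list genes at 0 in every library and the 5 nearest profiles, of which 1 is not reported here; MT1A, MT1H, NR3C1, NUP93, USF2 and markers were added after their values were seen, as were the 6 ratios. Alternatives were pseudocounts of 0.1 and 0.5, other filters, scalings and moderation, an exact permutation test, and leaving out libraries. Leaving out NC-2 with mitochondrially encoded genes removed was chosen after seeing the data.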

Additional observations from a re-analysis of the deposited data

Results flagged for a closer look

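In groups of 5 libraries, a library was singled out where its gap to the nearest other exceeded 0.71 of the whole range; chance does this in about 1 of 20 groups, and 5 of 21 groups were singled out here. In the DMSO group NC-2 was low for MT1E (528.2 TPM, others 938 to 1006), for MT1A (75.14 TPM, others 148 to 160.1) and for the metallothionein sum (1724 TPM, others 2705 to 3093), and it held 37.5% mitochondrial TPM. These 3 share their reads' library and are not independent of each other. In the LY group LY-4 was high for MT1M (9.952 TPM, others 5.89 to 6.92). MT1F was above 0 in NC-5 alone (0.1668 TPM, others 0). With all other controls at 0 the gap is the whole range, so the rate of 1 in 20 does not apply to MT1F.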

How the results depend on the processing

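Over 23 alternative settings the 4 members called lower and the 3 called higher stayed at 4 and 3 in each, and all 7 genes kept their direction and their call. Log2 fold changes ran from -1.76 to -1.42 for MT1E, from -1.73 to -1.31 for MT1M, from -1.47 to -1.14 for MT1X, from -1.28 to -0.97 for MT2A, from 0.85 to 1.15 for MTF1, from 1.32 to 1.63 for SLC30A1 and from 0.70 to 1.10 for SLC39A10. SLC39A14 passed in none. Genes called over the whole table numbered 7538, and 6933 to 8010 when 1 library was left out. MT1A, not called as deposited, passed in 7 of the 23. No paired analysis was possible because the control columns are not tied to numbered samples, so the fit with a replicate block was not run. With unknown depth, the zeros of MT1F and MT1G cannot be given an upper limit.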

Other observations

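Among 9444 tested genes with a promoter in the RefSeq table, 66 had at least 4 matches to TGCGCNC or TGCACNC in the 250 bases before their start. Of these, 28 (42.4%) were lower in LY and 21 (31.8%) higher, against 24.3% and 40.6% of all 9444, and their median log2 fold change was -0.09 against 0.18. Leaving out the metallothioneins, 26 of 64 were lower and 21 higher. These promoters were richer in G and C (median 73.2% against 66%), and the part of base composition in these counts was not tested. Where a gene had several annotated starts, the window with the most matches was counted. The limit of 4 equals the count in MT1X, and the calls are those of the values as deposited.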
